A study of Mus musculus with 6 samples.

Results

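Transcripts of 49 genes that act in mitosis were followed in mouse endothelial cells from 2 kinds of Matrigel plug. The genes form a list that was chosen with earlier results of these data known. Comparisons of the list with all genes are therefore descriptions and not tests. Each gene was given the mean signal of the probe sets that the array's annotation assigns to its symbol alone. Of the 49 genes 48 had such a probe set, 113 probe sets in all, out of 18193 genes and 45037 probe sets. Ccnb1, which encodes cyclin B1, had none and is not analysed here.

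Plugs were carried in the peritoneum of Balb/c nude mice, which lack a thymus. MFAP5 plugs held recombinant microfibrillar-associated protein 5, a secreted component of elastic microfibrils, and Control plugs had none added. Each group comprised 3 samples, and RNA of each was hybridized to 1 Affymetrix Mouse Genome 430 2.0 array. The sources used here do not give the age of the animals, the dose, the time in the animal or how endothelial cells were separated, nor is it stated whether each sample came from its own mouse. The p-values therefore measure the spread between these samples, which may be technical. The comparison asks which transcripts differ in endothelial cells that entered a gel holding MFAP5.

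Mitosis begins when Cdk1 bound to a B-type cyclin, with Plk1 and the Aurora kinases, drives chromosome condensation and spindle assembly. The spindle checkpoint holds the anaphase-promoting complex inactive until every chromosome is attached, after which separase cuts cohesin and the central spindle positions the cleavage furrow. Most of these genes are transcribed in G2 and M phase and repressed in resting cells, so their transcripts are widely used as a sign of proliferation, also in growing vessels.

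Deposited values were log2 signals with each probe set centred on its median over the 6 arrays. Differences between arrays can be read, absolute levels cannot, and the precision is limited by the number of arrays. The base of the log was inferred from the range of the values and is not stated. Because each probe set is centred, neither the detection of a gene nor the endothelial identity of the cells could be checked. Centring sets the mean of the 2 middle arrays to 0, so a gene with 1 probe set often shows equal and opposite values in the Control and MFAP5 arrays nearest each other. Control replicate 1 stood apart: across probe sets it correlated at -0.028 and 0.020 with Control replicates 2 and 3, which correlated with each other at 0.69. Signals of the bacterial spike-in transcripts were -0.32 in Control replicate 1, 0.64 and 0.65 in the other Control arrays and between -0.038 and -0.0065 with MFAP5 (exact permutation test, two-sided, p = 0.4). Counts are therefore also given without Control replicate 1.

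Of the 48 mitosis genes 3 fell with MFAP5 and none rose (limma, adjusted p under 0.05 over all 18193 genes). These were Plk1, Kif20a and Ccnb2, at 57.0%, 58.0% and 64.6% of the Control signal. The calls amount to 6.25% of the mitosis genes. Over all genes 2.79% were called lower and 0.759% higher. At an unadjusted p under 0.05, 20 mitosis genes were lower and 0 higher, where 14.4% and 5.33% of all genes were. A difference below 0 was seen in 44 of the 48, or 91.7%, against 65.6% of all genes. The median log2 difference was -0.30 for the mitosis genes and -0.079 for all genes, and 5 mitosis genes were lower by at least 1.5-fold (10.4%, against 3.58% of all genes). In this material fewer dividing cells and less mitotic RNA per cell cannot be told apart. The part of other cell types and of RNA integrity, whose values are given below, was not tested.

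**Figure D1:**
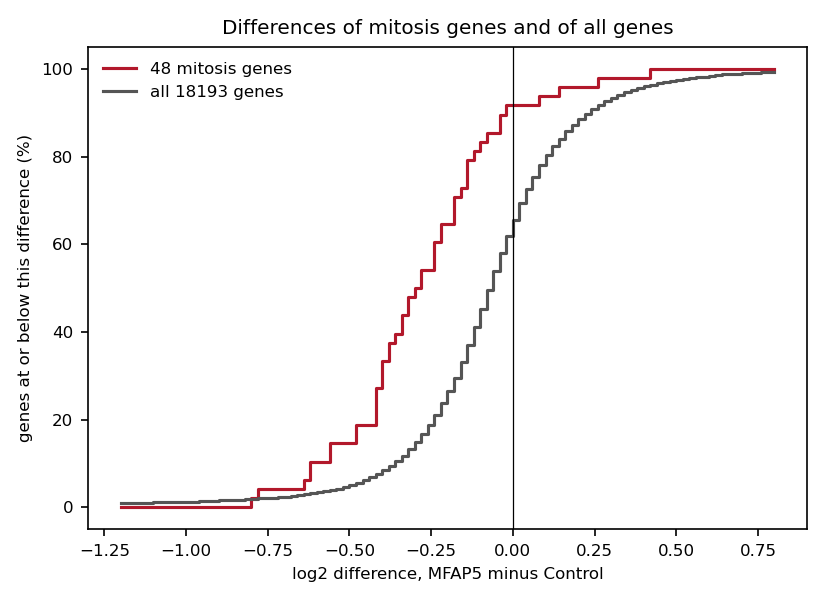
Cumulative share of genes (y axis, percent) at or below a given log2 difference, MFAP5 minus Control (x axis), for the 48 mitosis genes (red) and all 18193 genes (grey). The mitosis curve lies to the left over most of the range and crosses 0 at 91.7%, where the curve of all genes stands at 65.6%.

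Leaving out each array in turn changed the calls, while the differences of the 3 called genes stayed below 0. Plk1 then lay between -0.95 and -0.65, Kif20a between -0.90 and -0.67 and Ccnb2 between -0.75 and -0.51. Without Control replicate 1, 10 mitosis genes were lower and 1 was higher (limma; 10.5% and 4.18% of all genes). The 10 were Plk1, Kif20a, Ccnb2, Ccna2, Cdca8, Ube2c, Cdca3, Dlgap5, Kif23 and Kif4, and the higher one was Smc4. Without MFAP5 replicate 3, 5 were lower (2.34% of all genes). Leaving out any of the other 4 arrays left limma with no call among the mitosis genes, where 1.13% to 1.91% of all genes were lower. At an unadjusted p under 0.05, 19 mitosis genes were then lower without Control replicate 2 (8.76% of all genes) and 14 without Control replicate 3 (8.68%). Without MFAP5 replicate 1 there were 13 (10.1%) and without MFAP5 replicate 2 there were 19 (11.9%), and none was higher in these 4 fits (limma). With each array's spike-in level in the fit no mitosis gene was called either, with 18 lower at an unadjusted p under 0.05 (10.5% of all genes), and the median difference was -0.32.

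In 22 of the 48 genes (45.8%) every MFAP5 array lay below every Control array, which held for 17.8% of all genes. In none did every MFAP5 array lie above every Control array, as 6.51% of all genes did. The medians of the 48 genes were 0.13, 0.12 and 0.14 in Control replicates 1, 2 and 3. They were -0.34, -0.15 and 0.0018 in MFAP5 replicates 1, 2 and 3. MFAP5 replicate 1 thus had the lowest mitosis signals, and it was the lowest array of all 6 for 41 of the 48 genes, where it was the lowest for 25.7% of all genes. In MFAP5 replicate 3, 24 of the genes lay above their centre and 24 below it. The highest array was Control replicate 1 for 16 genes, Control replicate 3 for 15, Control replicate 2 for 9 and MFAP5 replicate 3 for 7. Without MFAP5 replicate 1 the median difference was -0.19 and 39 of the 48 differences were below 0.

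**Figure D2:**
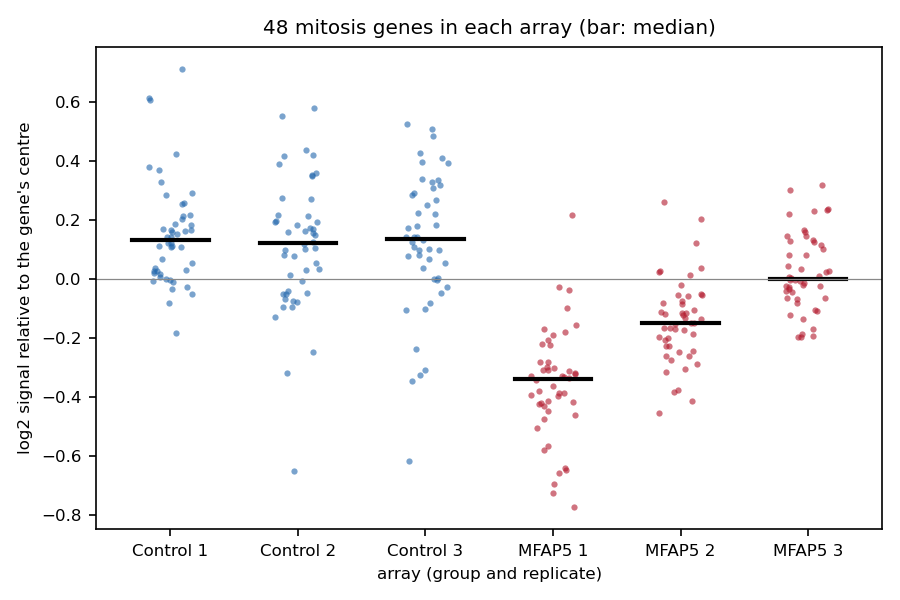
Centred log2 signal (y axis) of each of the 48 mitosis genes in each array (x axis; blue points, Control replicates 1 to 3; red points, MFAP5 replicates 1 to 3), with the median as a bar. The Control medians lie between 0.12 and 0.14, and the MFAP5 medians at -0.34, -0.15 and 0.0018.

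Plk1, the polo-like kinase of centrosome maturation and mitotic entry, stood at 0.12, 0.55 and 0.53 in Control replicates 1, 2 and 3. In MFAP5 replicates 1, 2 and 3 it stood at -0.73, -0.38 and -0.12. Its log2 difference was -0.81 ± 0.18 (SE; n = 3 arrays per group; limma adjusted p = 0.0475). Control replicates 2 and 3 were the high arrays, and the groups were separated by the gap between Control replicate 1 and MFAP5 replicate 3.

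Kif20a, a kinesin that carries Plk1 and the passenger complex to the central spindle, had Control signals of 0.19, 0.42 and 0.51. Its MFAP5 signals were -0.65, -0.41 and -0.19. The difference was -0.79 ± 0.14 (SE; n = 3 arrays per group; limma adjusted p = 0.0229). The same 2 arrays, Control replicate 1 and MFAP5 replicate 3, lay nearest each other.

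Ccnb2, cyclin B2, a Golgi-associated partner of Cdk1, was at 0.17, 0.27 and 0.27 in the Control arrays. In the MFAP5 arrays it was at -0.64, -0.38 and -0.17, which gave -0.63 ± 0.13 (SE; n = 3 arrays per group; limma adjusted p = 0.0395). The Control arrays were close together and most of the spread lay within the MFAP5 group. Each of these 3 genes had a single probe set. In the fit over probe sets, where the adjustment runs over 45037 tests, Kif20a passed (limma adjusted p = 0.0331), while Ccnb2 (0.0546) and Plk1 (0.0574) did not. Whichever array was left out, the difference lay between -0.95 and -0.65 for Plk1, between -0.90 and -0.67 for Kif20a and between -0.75 and -0.51 for Ccnb2. Adjusted p then ran from 0.0194 to 0.202 for Plk1, from 0.0152 to 0.120 for Kif20a and from 0.0241 to 0.168 for Ccnb2 (limma).

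Promoters of G2 and M phase genes are known for 2 elements, the cell cycle homology region, with the letters TTTGAA or TTCGAA, and CCAAT boxes, which bind NF-Y. RefSeq promoter windows (GRCm38.p6, 250 bases before to 50 after the start) were at hand for 41 of the 49 genes, as 43 windows. The 170 bases before the start are shown for the called genes Ccnb2 and Plk1, so that the place of CCAAT can be seen. Those of Kif4 and Kif23, the uncalled genes next in order of p with a window, are also shown. The called gene Kif20a was among the genes without a window. Sequences run 5′ to 3′ along the gene, and capitals mark TTTGAA and CCAAT on either strand (ATTGG is CCAAT on the other strand).
Ccnb2, chr9:70421555-70421724, minus strand: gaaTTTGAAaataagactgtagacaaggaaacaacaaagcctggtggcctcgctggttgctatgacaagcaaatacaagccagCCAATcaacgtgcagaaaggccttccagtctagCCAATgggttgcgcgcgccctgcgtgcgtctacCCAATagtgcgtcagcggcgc
Plk1, chr7:122159265-122159434, plus strand: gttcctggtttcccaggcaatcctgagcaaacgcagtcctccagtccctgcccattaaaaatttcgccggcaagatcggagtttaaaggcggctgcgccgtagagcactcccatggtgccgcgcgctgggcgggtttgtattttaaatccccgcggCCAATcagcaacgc
Kif4, chrX:100625895-100626064, plus strand: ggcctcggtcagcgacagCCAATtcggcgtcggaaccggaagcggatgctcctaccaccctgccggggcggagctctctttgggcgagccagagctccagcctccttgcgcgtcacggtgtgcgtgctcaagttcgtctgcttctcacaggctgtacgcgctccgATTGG
Kif23, chr9:61946800-61946969, minus strand: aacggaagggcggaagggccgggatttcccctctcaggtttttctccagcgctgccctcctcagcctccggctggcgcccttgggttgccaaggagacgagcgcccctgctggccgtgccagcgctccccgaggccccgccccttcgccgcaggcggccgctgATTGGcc

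Ccnb2 held CCAAT beginning 87, 54 and 21 bases before the start, and Plk1 held it 14 bases before. On the other strand it began 5 bases before the start in Kif4 and 7 bases before it in Kif23. Kif4 had a further CCAAT 152 bases before the start. TTTGAA lay just downstream of the start, and so beyond the bases shown, beginning 4 bases after it in Ccnb2, 30 in Plk1, 19 in Kif4 and 2 in Kif23. Ccnb2 had a further TTTGAA 167 bases before its start. Over the whole window and on both strands, TTTGAA or TTCGAA was found in 33 of 43 windows of mitosis genes (76.7%) and in 19.2% of all 32851 windows. CCAAT was found in 76.7% and 37.4%, at least 2 copies in 51.2% and 11.7%, and CCAAT together with TTTGAA or TTCGAA in 69.8% and 7.52%. Of the measured mitosis genes with a window, 31 held TTTGAA or TTCGAA and had a median log2 difference of -0.31, and 9 held neither and had a median of -0.26. The 2 ranges, from -0.81 to 0.24 and from -0.43 to 0.067, overlapped. Overlapping matches were each counted, and a match describes letters alone.

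Cdk1, its cyclins and the transcription factor gene Foxm1 had lower means with MFAP5 in each of the 4 measured genes. The groups did not overlap in any of them, where 17.8% of all genes were lower without overlap. The median log2 difference was -0.49 and limma called 1 of the 4 lower, Ccnb2, where it called 2.79% of all genes lower. Ccna2, cyclin A2, which acts in S phase and at mitotic entry, had Control signals of 0.14, 0.35 and 0.40 and MFAP5 signals of -0.51, -0.25 and -0.082. Its difference of -0.57 ± 0.13 (SE; n = 3 arrays per group) missed the threshold (limma adjusted p = 0.0572) and passed with quantile normalization (0.0466) and without Control replicate 1 (0.0281). Its 2 probe sets were at -0.83 and -0.32. Cdk1, the kinase of mitotic entry, differed by -0.40 (limma adjusted p = 0.156). Foxm1, an activator of G2 and M phase genes, differed by -0.24, with a 95% interval from -0.49 to 0.021, and its 4 probe sets lay between -0.34 and -0.070.

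Among the other mitotic kinases no gene passed. Aurka, which builds the spindle poles, was at -0.29, Melk, a kinase of dividing progenitor cells, at -0.26 and Nek2, which splits the centrosomes, at -0.18 (limma adjusted p between 0.255 and 0.403). The groups overlapped for these 3 genes. The 2 probe sets of Aurka disagreed, at -0.62 and 0.035.

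The chromosomal passenger complex corrects faulty attachments and later directs cytokinesis. Its 4 genes had a median difference of -0.38 and none passed. Cdca8, which encodes the subunit borealin, was at 0.028, 0.44 and 0.43 in the Control arrays and at -0.58, -0.46 and -0.028 in the MFAP5 arrays. At -0.65 ± 0.17 (SE; n = 3 arrays per group; limma adjusted p = 0.0823) its difference was larger than that of Ccnb2, with more spread within the groups. Birc5, survivin, was at -0.41 without overlap (limma adjusted p = 0.0974). Aurkb, the kinase of the complex, spanned 0.71, 0.35 and -0.32 in the Control arrays, against -0.30, -0.083 and 0.083 with MFAP5. Control replicate 3 of Aurkb lay below every MFAP5 array, and the difference of -0.35 had a 95% interval from -0.90 to 0.20. Incenp, the scaffold, was at -0.15, and its 5 probe sets ran from -0.45 to 0.42.

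**Figure D3:**
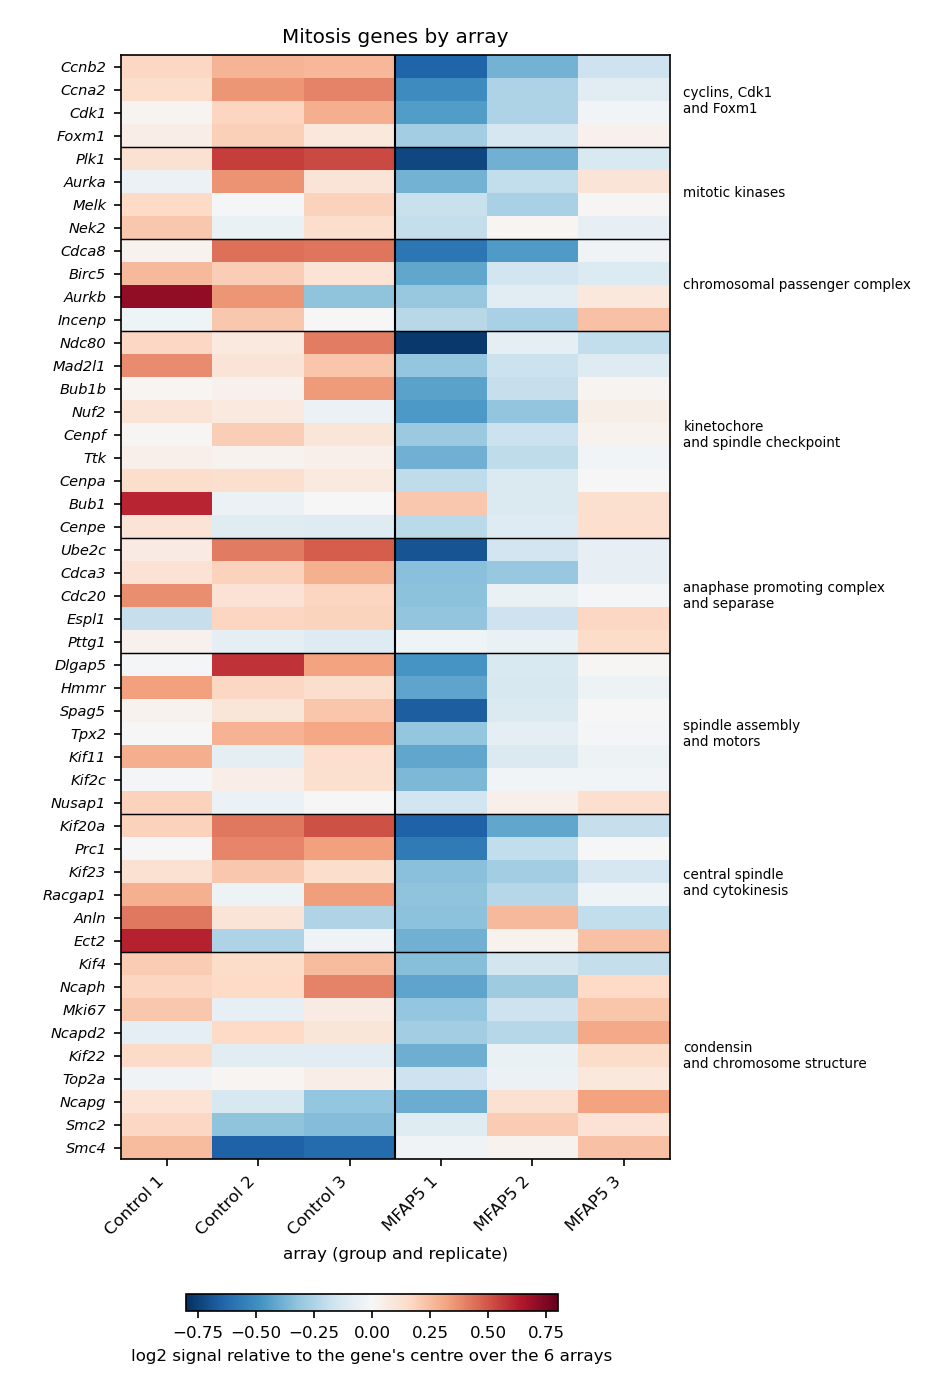
Centred log2 signal of the 48 mitosis genes (rows, grouped by role and ordered by difference within a role) in the 6 arrays (columns, Control replicates 1 to 3 and MFAP5 replicates 1 to 3), from blue (below the gene's centre) to red (above it). MFAP5 replicate 1 is the bluest column, lowest for 41 of 48 genes, and Smc2 and Smc4 in the last rows are lowest in Control replicates 2 and 3.

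All 9 genes of the kinetochore and the spindle checkpoint had a difference below 0 (65.6% of all genes), with a median of -0.25 and no call. In 4 of them (44.4%) MFAP5 was lower without overlap, as it was in 17.8% of all genes. Mad2l1, which encodes the checkpoint protein that binds and inhibits Cdc20, had the smallest p of the group. It was at 0.38, 0.11 and 0.22 in the Control arrays and at -0.31, -0.17 and -0.11 in the MFAP5 arrays, a difference of -0.43 ± 0.11 (SE; n = 3 arrays per group; limma adjusted p = 0.0782). Ndc80, which couples kinetochores to microtubules, differed by -0.57, much of it from MFAP5 replicate 1 at -0.77, and its difference without that array was -0.36. Nuf2, its partner in the same complex, was at -0.29 with overlap. The checkpoint kinase genes Bub1b and Ttk were at -0.33 and -0.24. Cenpf, a kinetochore protein of G2, and Cenpa, the centromeric histone, were at -0.25 and -0.22. Bub1, another checkpoint kinase, stood at 0.61 in Control replicate 1 and within 0.22 of its centre in the other arrays, and its difference of -0.11 became 0.10 without that array. Cenpe, a kinesin of chromosome alignment, was at -0.035, and its 2 probe sets were at -0.49 and 0.42.

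Genes of the anaphase-promoting complex and of sister separation had a median of -0.35 over 5 genes, with no call. In 3 of them (60%, against 17.8% of all genes) MFAP5 was lower without overlap. Cdca3, whose product helps degrade the Cdk1 inhibitor Wee1, was at 0.11, 0.18 and 0.28 in the Control arrays and at -0.33, -0.30 and -0.065 in the MFAP5 arrays. Its difference was -0.43 ± 0.11 (SE; n = 3 arrays per group; limma adjusted p = 0.0799). Of its 3 probe sets, between -0.89 and -0.12, 1 passed in the fit over probe sets (limma adjusted p = 0.0155). Ube2c, the E2 enzyme of the complex, was at -0.63 (limma adjusted p = 0.113), and Cdc20, its activator, at -0.35. Espl1, separase, was at -0.16 with overlap. Pttg1, securin, the inhibitor of separase, was at 0.032, -0.075 and -0.10 in the Control arrays and at -0.037, -0.056 and 0.15 in the MFAP5 arrays. It was 1 of the 4 mitosis genes with a difference above 0, at 0.067 (95% interval from -0.17 to 0.30), and its 3 probe sets ran from -0.32 to 0.38.

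The 7 genes of spindle assembly had a median of -0.32, with no call. In 4 of them (57.1%, against 17.8% of all genes) MFAP5 was lower without overlap. Hmmr, a microtubule-binding protein of the spindle poles and also a hyaluronan receptor, was at 0.33, 0.16 and 0.14 in the Control arrays and at -0.42, -0.13 and -0.044 in the MFAP5 arrays. The gene differed by -0.41 ± 0.13 (SE; n = 3 arrays per group; limma adjusted p = 0.125), and 1 of its 5 probe sets passed, at -0.74 (limma adjusted p = 0.0422), where another was at 0.00083. Dlgap5, a stabilizer of kinetochore fibres, was at -0.49, Spag5, astrin, at -0.37, and Tpx2, the activator of Aurora A, at -0.32. Kif11, the motor that pushes spindle poles apart, was at -0.31, Kif2c, which depolymerizes microtubules at centromeres, at -0.19, and Nusap1, which bundles spindle microtubules, at -0.042.

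The central spindle and cytokinesis genes had a median of -0.40 over 6 genes. Limma called 1 of the 6 lower (Kif20a), where it called 2.79% of all genes lower. In 3 of them (50%, against 17.8% of all genes) MFAP5 was lower without overlap. Prc1, which bundles the antiparallel microtubules of the midzone, was at -0.50. Kif23 and Racgap1, the components of centralspindlin, were at -0.41 and -0.39, and of these Kif23 was close to the threshold (limma adjusted p = 0.0647). Ect2, a cytokinesis factor, stood at 0.62 in Control replicate 1 against -0.25 and -0.027 in the other Control arrays. Its difference was -0.15 with that array and 0.096 without it. Anln, anillin, a scaffold of the contractile ring, was at -0.18 with overlap.

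Condensin and chromosome structure genes had the median nearest 0 of the 8 role groups, at -0.092 over 9 genes, with no call. The groups overlapped in 8, and 11.1% of the genes were lower without overlap (17.8% of all genes). Kif4, a chromosome-bound kinesin that also acts at the midzone, was at 0.20, 0.15 and 0.25 in the Control arrays and at -0.34, -0.15 and -0.19 in the MFAP5 arrays. No Control array overlapped an MFAP5 array, and the difference was -0.43 ± 0.10 (SE; n = 3 arrays per group; limma adjusted p = 0.0572). Ncaph, a condensin I subunit, was at -0.42, but its signals in Control replicate 2 and MFAP5 replicate 3 were both 0.16 and just overlapped. Ncapd2, another condensin I subunit, was at -0.13 and Kif22, a kinesin of chromosome arms, at -0.092. Top2a, the topoisomerase that untangles sister chromatids, was at -0.059 (95% interval from -0.30 to 0.18), and Mki67, the gene of the proliferation marker Ki-67, at -0.16 (95% interval from -0.50 to 0.19). Both overlapped between the groups.

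Smc4 and Smc2, the core ATPases of both condensins, had differences above 0 that did not pass. Smc4 was at 0.25, -0.65 and -0.62 in the Control arrays and at -0.025, 0.025 and 0.23 in the MFAP5 arrays. Smc2 was at 0.17, -0.32 and -0.35 in the Control arrays and at -0.096, 0.20 and 0.12 in the MFAP5 arrays. In both genes Control replicates 2 and 3 were low and Control replicate 1 lay among or above the MFAP5 arrays. The differences were 0.41 ± 0.23 for Smc4 and 0.24 ± 0.16 for Smc2 (SE; n = 3 arrays per group; limma adjusted p = 0.351 and 0.431). Without Control replicate 1 Smc4 was higher by 0.71 (limma adjusted p = 0.0127). Its 3 probe sets lay between 0.35 and 0.45 and the 5 of Smc2 between 0.012 and 0.62. Ncapg, a condensin I subunit, was at 0.11, -0.13 and -0.31 in the Control arrays and at -0.40, 0.12 and 0.32 in the MFAP5 arrays, a difference of 0.13 with overlap and probe sets at -0.27 and 0.52.

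**Figure D4:**
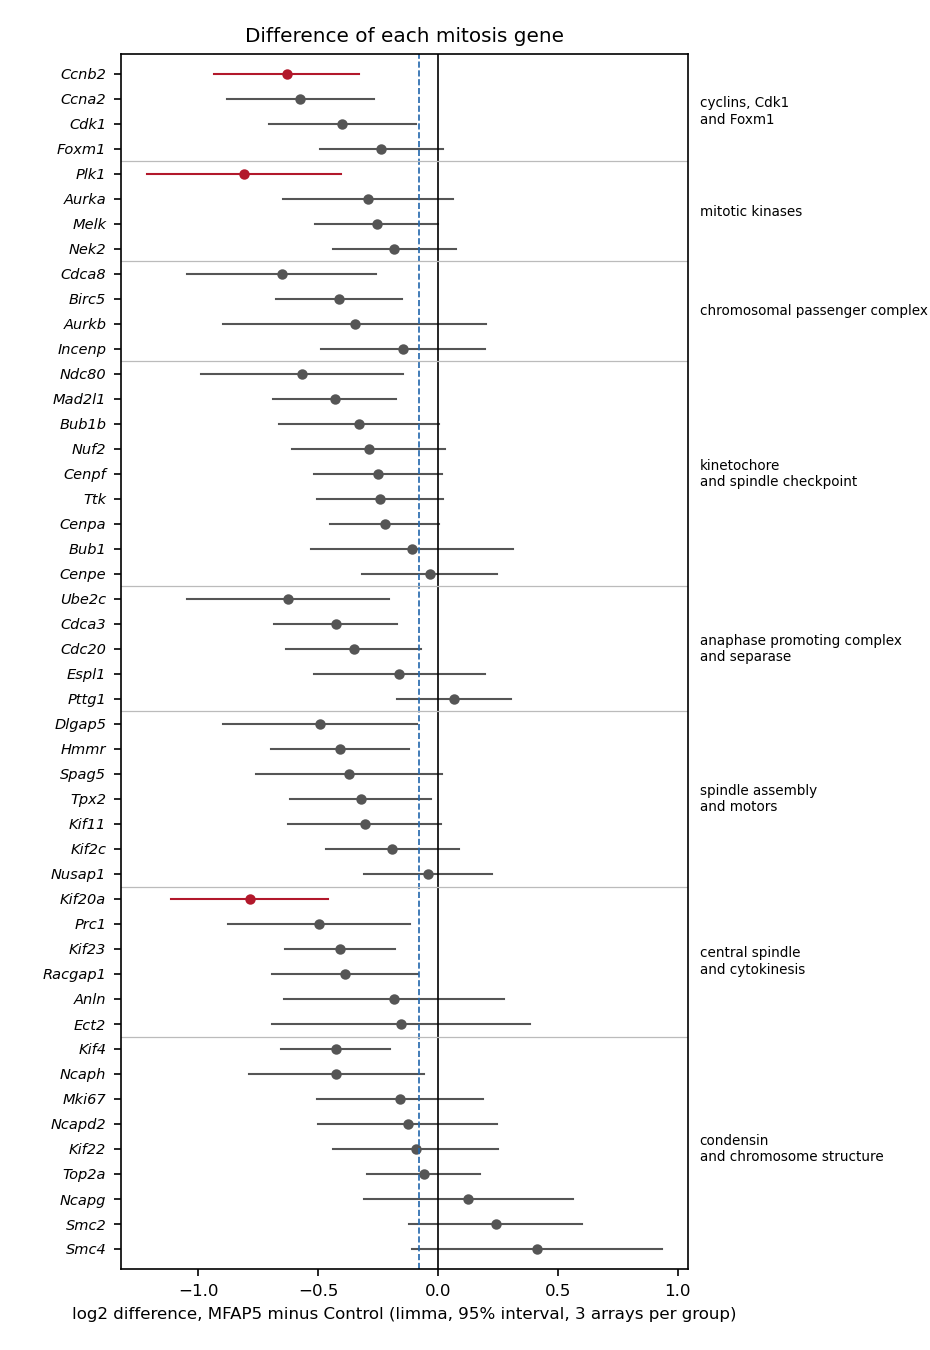
Log2 difference, MFAP5 minus Control (x axis), of each of the 48 mitosis genes (y axis, grouped by role), with the limma 95% interval over 3 arrays per group. Red marks the 3 genes with an adjusted p under 0.05 (Ccnb2, Plk1 and Kif20a), and the dashed line is the median of all genes, at -0.079. In each role most genes lie to the left of 0, and Smc4 lies farthest to the right, at 0.41.

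Of the 113 probe sets 92 had a difference below 0 and 21 above it. In the fit over probe sets 3 were lower and none was higher (limma, adjusted p under 0.05), which is 2.65% of the mitosis probe sets, where 1.72% of all probe sets were lower and 1.56% higher. The 3 belonged to Kif20a, Cdca3 and Hmmr. Of the 34 genes with more than 1 probe set 12 had probe sets on both sides of 0, among them Top2a, Ncapg, Ttk and Bub1b. In 20 all probe sets were below 0, and in Smc2 and Smc4 all were above it.

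Of 67 further genes of mitosis, taken from a separate list, 65 were measured. Of these 3 fell (limma; 4.62%, against 2.79% of all genes) and none rose (0.759% of all genes). A difference below 0 was found in 54 (83.1%, against 65.6% of all genes). The median was -0.20, where that of all genes was -0.079. Spc24, a subunit of the Ndc80 complex, was at 0.16, 0.40 and 0.41 in the Control arrays and at -0.57, -0.55 and -0.16 in the MFAP5 arrays, a difference of -0.75 (limma adjusted p = 0.0238). Kifc1, a motor that focuses spindle poles, fell by 0.84 (limma adjusted p = 0.0336), and Cenpn, which reads the centromeric nucleosome, by 0.70 (limma adjusted p = 0.0477). In 18 of the 65 (27.7%) the groups did not overlap, MFAP5 being lower in each, as it was in 17.8% of all genes. Without Control replicate 1 limma called 9 lower (13.8%, against 10.5% of all genes), and without MFAP5 replicate 3 it called 6 (9.23%, against 2.34%). Without any other array it called 0.

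DNA replication genes had a median of -0.20 over 40 measured genes, of which limma called none. At an unadjusted p under 0.05 there were 12 of the 40 (19.7% of all genes in either direction). Mcm4 was higher among them, at 0.61, and the rest were lower. In 14 of the 40 (35%, against 17.8% of all genes) MFAP5 was lower without overlap. A difference below 0 was seen in 35 (87.5%, against 65.6% of all genes). The 2 of smallest p were Tk1, thymidine kinase, at -0.63 (limma adjusted p = 0.0569), and Gins4, a subunit of the replicative helicase, at -0.35 (limma adjusted p = 0.0833). Without Control replicate 1, 6 of them were lower and 2 higher (15.0% and 5.0%, against 10.5% and 4.18% of all genes). Without MFAP5 replicate 3, 1 was lower (2.5%, against 2.34%). These shares of calls were near those of all genes. Among 8 cyclins, kinases and factors of G1, limma called none and the median was 0.0069. Of the 8, 3 had an unadjusted p under 0.05 (19.7% of all genes in either direction). These were Myc and Cdk6, higher at 0.44 and 0.35 (limma adjusted p = 0.149 and 0.172), and Cdk4, lower at -0.24 (limma adjusted p = 0.230). In 3 of the 8 MFAP5 was higher without overlap (6.51% of all genes), and in 1 (12.5%, against 17.8% of all genes) it was lower without overlap.

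Of 16 measured inhibitors and repressors of the cell cycle limma called 2 lower and 1 higher (12.5% and 6.25%, against 2.79% and 0.759% of all genes). Differences lay below 0 in 7 (43.8%, against 65.6% of all genes) and above it in 9. The median was 0.032, where that of all genes was -0.079. Cdkn2c, which encodes the Cdk4 and Cdk6 inhibitor p18, was at 0.50, 0.83 and 0.84 in the Control arrays and at -0.78, -0.93 and -0.50 in the MFAP5 arrays. It fell by 1.46 (limma adjusted p = 0.00137). Cdkn1c, the inhibitor p57, fell by 1.22 (limma adjusted p = 0.00188). Btg2, an antiproliferative early response gene, was at -0.40, -0.44 and -0.36 in the Control arrays and at 0.60, 0.21 and 1.09 in the MFAP5 arrays, and rose by 1.03 (limma adjusted p = 0.0267). Both falls were called whichever array was left out. Btg2 was not called without Control replicate 2, Control replicate 3 or MFAP5 replicate 1, nor with the spike-in covariate. Without Control replicate 1 a further gene of the list was higher, the inhibitor gene Cdkn1b, which is named here after its values were seen.

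**Figure D5:**
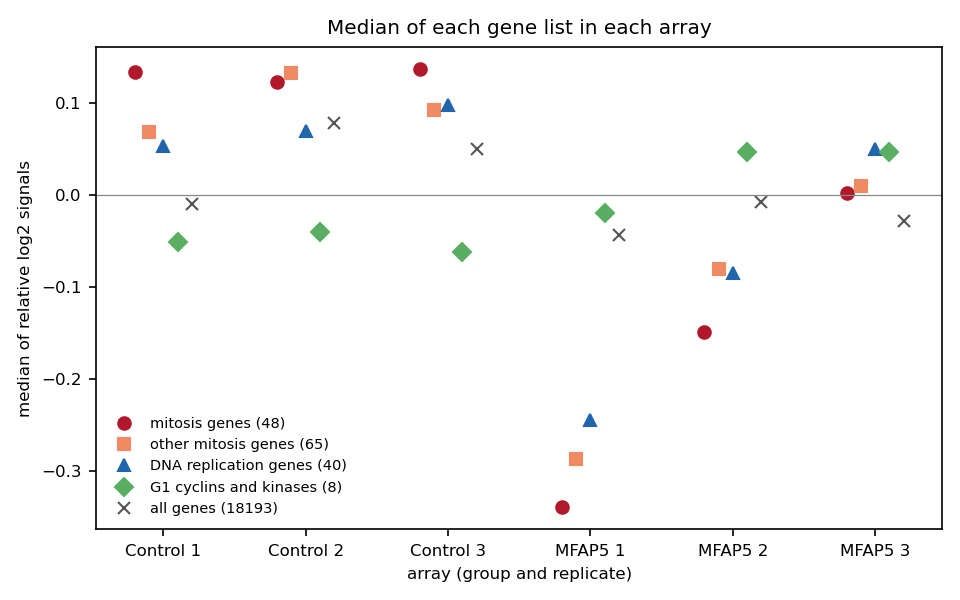
Median of the centred log2 signals (y axis) of 5 gene lists in each array (x axis, Control replicates 1 to 3 and MFAP5 replicates 1 to 3), with the number of genes of each list in the key. The mitosis, further mitosis and replication lists are lowest in MFAP5 replicate 1 (-0.34, -0.29 and -0.24) and near 0 in MFAP5 replicate 3 (0.0018, 0.010 and 0.050), while the G1 list stays between -0.062 and 0.046.

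Other cell types could contribute mitotic RNA, and their markers were read in the same arrays. All 9 measured adipocyte markers were lower in every MFAP5 array than in every Control array, as were 17.8% of all genes. Limma called 8 of these markers lower, against 2.79% of all genes. The medians of the 9 markers were 1.15, 1.35 and 1.30 in the Control arrays. In MFAP5 replicates 1, 2 and 3 they were -3.99, -2.64 and -0.97. MFAP5 replicate 1 was thus the lowest of its group and MFAP5 replicate 3 the highest in the adipocyte as in the mitosis medians. Of 12 neutrophil markers 5 fell (limma), as did 2.79% of all genes. The neutrophil medians lay between 0.16 and 0.52 in the Control arrays and between -0.46 and -0.30 in the MFAP5 arrays. Of 14 endothelial markers limma called none, and 3 had an unadjusted p under 0.05 (19.7% of all genes in either direction). These were Tek, Pecam1 and Emcn, lower at -0.75, -0.71 and -0.31. In 11 of the 14 the difference was below 0 (78.6%, against 65.6% of all genes), with a median of -0.18. Per array the endothelial medians ran from -0.059 to 0.20 in the Control and from -0.15 to -0.027 in the MFAP5 arrays. Limma called none of 12 macrophage, 10 T and NK cell, 7 B cell, 8 mesothelial, 5 erythroid and 8 skeletal muscle markers. Of these 2, 1, 0, 1, 2 and 4 had an unadjusted p under 0.05 (19.7% of all genes). Itgam and Alas2 were the higher ones among them, and the rest were lower. MFAP5 was lower without overlap in 8.33%, 30%, 0%, 12.5%, 20% and 37.5% of these lists, taken in that order (17.8% of all genes). It was higher without overlap in 4 of the 12 macrophage markers (6.51% of all genes) and in none of the other lists named here. In the same order the median differences of the lists were 0.076, -0.13, -0.12, -0.048, -0.14 and -0.30. Of 10 fibroblast markers 9 had a difference above 0, with a list median of 0.27. Of these, 3 were higher in every MFAP5 array than in every Control array, as were 6.51% of all genes. The other fibroblast marker, Pi16, was the only one of the 10 limma called and was lower at -0.93 (2.79% of all genes were called lower). At an unadjusted p under 0.05 there were 4 of the 10 (19.7% of all genes), of which all but Pi16 were higher. Of 10 pericyte and smooth muscle markers 7 were below 0, with a list median of -0.12. Limma called 1 of the 10, Kcnj8, which was lower (2.79% of all genes were called lower). Of the 10, 3 had an unadjusted p under 0.05 (19.7% of all genes), and all of these were lower. In 3 (30%, against 17.8% of all genes) MFAP5 was lower without overlap. The difference between 3' and 5' probe sets of beta-actin, a measure of RNA integrity, was taken from centred signals. It can therefore be compared between arrays but gives no level of integrity. In the Control arrays it was -0.0048, -0.053 and -0.032. With MFAP5 it was 0.14, 0.082 and 0.036 in replicates 1, 2 and 3 (exact permutation test, two-sided, p = 0.1, the smallest possible). The same measure for Gapdh was -0.16, 0.033 and -0.033 in the Control arrays and 0.086, -0.038 and 0.034 with MFAP5, so that the groups overlapped (exact permutation test, two-sided, p = 0.4). The part of these values in the mitosis differences was not tested.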

How the data were processed

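Per the labels, biotin-labelled cRNA from 3 Control and 3 MFAP5 samples was hybridized to Affymetrix Mouse Genome 430 2.0 arrays. MAS5 is named in the submitters' processing notes; the sources used here give no settings. The values as deposited were taken as log2 signals: medians of probe sets across the 6 arrays were 0 (to within 5e-07), and 1 probe set ranged over 8.24 units, too many for base 10. With natural logs each difference and fold would be too small. No level is left, so no filter on dim probe sets was possible.

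The 64 control probe sets were left out of the tests. Of the other 45037, 34945 had 1 symbol in the platform annotation, 932 several and 9160 none listed. Symbols were updated through Entrez identifiers (RefSeq, GRCm38.p6). Probe sets of a gene were averaged, and differences are MFAP5 minus Control from limma (version 3.58.1, R version 4.3.3; lmFit, eBayes without trend, two-sided, Benjamini-Hochberg over all genes or all probe sets, threshold 0.05). The procedure was tested on simulated data.

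The mitosis genes and all lists were chosen with earlier results of these data known. Array values are given for the genes past the threshold, the gene of smallest p in each role and the 4 with the highest difference, and from each further list the genes past the threshold or else the 2 of smallest p. Other genes are named by their difference. Alternatives covered normalization, the variance model, array weights, a replicate block, a spike-in covariate (mean of 14 probe sets), the choice of probe sets, the genes more variable than the median gene and leaving out each array. The alternatives for the further lists were added after the data had been seen.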

Additional observations from a re-analysis of the deposited data

How the results depend on the processing

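The median difference of the mitosis genes stayed below 0 in all 16 alternatives, between -0.42 and -0.19, while the number called did not hold. From 3 lower genes and 3 lower probe sets, limma went to 6 and 11 with a replicate block (3.24% of all genes and 2.08% of all probe sets) and to 0 and 1 with the spike-in covariate (1.74% and 1.10%). With array weights 20 and 31 were lower (15.8% and 8.49%), and 2 genes and 4 probe sets were higher (6.18% and 6.76%). Quantile normalization and a variance trend gave 5 and 7 lower probe sets (1.94% and 2.03%). The genes more variable than the median gene, with 40 mitosis genes and fewer tests, gave 6 lower genes (7.59% of those tested). Leaving out 1 array gave 0 to 10 lower and 0 to 1 higher genes, from 0 higher. Over all genes 1.13% to 10.5% were then lower and 0.077% to 4.18% higher. Among mitosis probe sets 0 to 16 were then lower and 0 to 6 higher, also from 0 higher. Over all probe sets the shares were 0.557% to 7.48% lower and 0.2% to 6.26% higher. The cause of the other changes was not tested. Plk1 and Ccnb2 missed the threshold where the probe set of largest SD stood for each gene (adjusted p = 0.0563 and 0.0610). The median of all genes shifted by 0.042 with quantile normalization.

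Some uncalled genes near 0 changed sign. With array weights Aurkb was at 0.0093, Cenpe at 0.013, Bub1 at 0.040 and Anln at 0.051. With the probe set of largest SD Incenp and Cenpe were at 0.42 and Kif22 at 0.38. Over the left-out arrays Cenpe ran from -0.13 to 0.043, Bub1 from -0.23 to 0.10, Nusap1 from -0.10 to 0.037, Ect2 from -0.34 to 0.096, Top2a from -0.12 to 0.0020, Kif22 from -0.22 to 0.054 and Ncapg from -0.027 to 0.33.

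The shared replicate numbers did not meet the criterion for pairing: deviations from the group means correlated at 0.21, 0.055 and 0.085 for replicates 1, 2 and 3, and not every sample correlated best with its own number. The block result above is therefore a hint from the data and not part of the design.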

Other observations

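The letters of the cell cycle homology region and of CCAAT boxes were also set against the differences of all measured genes, as a description with no test. Of 14452 measured genes with a RefSeq promoter window, 1019 held CCAAT together with TTTGAA or TTCGAA. Their median log2 difference was -0.086 and 2.85% of them were called lower by limma, where the median of all 14452 was -0.077 and 2.76% were called lower. Genes with and without TTTGAA or TTCGAA had medians of -0.079 and -0.076. Among the 28 mitosis genes with both elements the median was -0.32.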
